A study of Mus musculus with 4 samples.

Results

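Integrin subunit genes and the genes of the linkers that tie integrins to actin were followed in tumours formed by HIF-1alpha knockout (KO) and mock AXT osteosarcoma cells. The members were the protein-coding genes whose symbols are those of an integrin alpha or beta subunit, with the linker genes Tln1, Tln2, Vcl, Ptk2, Pxn, Ilk, Fermt2 and Parva added by name. They came to 34 of the 55487 genes of the deposited table: 18 alpha subunits, 8 beta subunits and 8 linkers. The rule used no measured value.

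AXT is a mouse osteosarcoma line that was made by overexpressing c-MYC in Ink4a/Arf-deficient stromal cells of bone marrow, and both groups share that origin. The knockout cells were 3 HIF-1alpha KO lines, HIF-1alphaKO AXT1-1, HIF-1alphaKO AXT1-2 and HIF-1alphaKO AXT2, and the control was 1 Mock AXT line with the genotype WT. Cells of each line were mixed with matrigel, a basement membrane extract rich in laminin and collagen IV, and injected into C57BL/6scid mice, which lack mature T and B cells. The tumours were taken on day 1, and poly(A) RNA of each was counted in 1 library. The authors named the knockout columns c11, c15 and c22, and the labels do not tie these names to the lines. Where 3 KO values are listed, they stand in that order. Each line is thus 1 library, a difference between lines has no replicate check, and a difference from mock rests on 1 control library.

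Integrins are receptors made of 1 alpha and 1 beta chain that bind matrix proteins outside the cell. Inside the cell the beta tail binds talin and kindlin, which switch the receptor on, and vinculin, parvin and paxillin connect it to actin and to the focal adhesion kinase. In bone-forming cells the beta1 and alphav integrins are known as the main receptors for fibronectin, collagen and osteopontin.

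Total counts were 12910058 in c11, 13193264 in c15, 13081007 in c22 and 12383719 in mock. Levels are given as CPM, counts scaled to the same total in each library, and a count of 0 allowed up to 0.227 to 0.232 CPM in the KO libraries and 0.242 CPM in mock, for counting error only. The HIF-1 target Bnip3, a mitophagy receptor gene, was at 32.5, 29.9 and 39.4 CPM in KO c11, c15 and c22, against 469 CPM in mock, while Hif1a RNA was at 104, 98.7 and 22.3 CPM, against 107 CPM. Of 9 osteoblast lineage markers, 1 was above mock in all 3 KO libraries, Col1a1 at 1913, 1093 and 4700 CPM against 862 CPM in mock, and 4 were below it in all 3, among them Runx2 at 116 to 139 CPM in the KO libraries and 245 CPM in mock. The other markers of that list lay on both sides of mock. Host cells were present as well. Skeletal muscle markers summed to 6.97, 1.74 and 25.5 CPM in KO c11, c15 and c22 against 113 CPM in mock, and erythroid markers to 1.63, 4.24 and 41.1 CPM against 116 CPM. The T cell gene Cd3e and the B cell gene Ms4a1 were at 0 in all 4 libraries. In such bulk tumour RNA, fewer cells of a type and less RNA per cell cannot be told apart.

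The comparison of the KO lines with mock asked which of the adhesion genes differ with HIF-1alpha on the first day after implantation. Among the tested alpha subunit genes, Itga2b, Itga3, Itga5 and Itga8 stood above mock in all 3 KO libraries. Itga2, Itga4, Itga7, Itga9, Itgam and Itgav stood below it in all 3. Of these, Itga2, Itga8 and Itga9 averaged under 1 CPM. Of the 8 linkers, 5 had KO libraries on both sides of mock. Over all tested genes 21.0% lay above mock in all 3 KO libraries and 22.5% below it in all 3, so most did neither. Of the 34 members, 30 passed the filter on low counts, and 26 of these averaged 1 CPM or more. With edgeR's quasi-likelihood test over 15706 genes, 0 members passed an adjusted p of 0.05 in either direction, where 0.0% of all tested genes were called higher and 0.00637% lower. DESeq2 called 1 member higher, Itga3, and 0 lower, against 0.306% and 0.42% of all tested genes. At an unadjusted edgeR p under 0.05 there were 2 members, or 6.7% of those tested, against 3.68% of all tested genes: Itga3, higher in KO as were 1.12% of all genes, and Itga4, lower in KO as were 2.56%. With limma-voom 0 members passed.

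Over the tested members, 8 lay above mock in all 3 KO libraries (26.7%, against 21.0% of all tested genes) and 10 lay below it in all 3 (33.3%, against 22.5%). The other 12 had KO libraries on both sides of mock. All 3 KO ratios have mock as their denominator, so 1 mock value moves them together. The median fitted log2 fold change (KO over mock) was 0.04 for the members and 0.05 for all tested genes. It was -0.22 for the members without c22. Of the 8 linkers, 2 lay above mock in all 3 KO libraries (25%, against 21.0% of all tested genes) and 1 below (12.5%, against 22.5%).

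**Figure D1:**
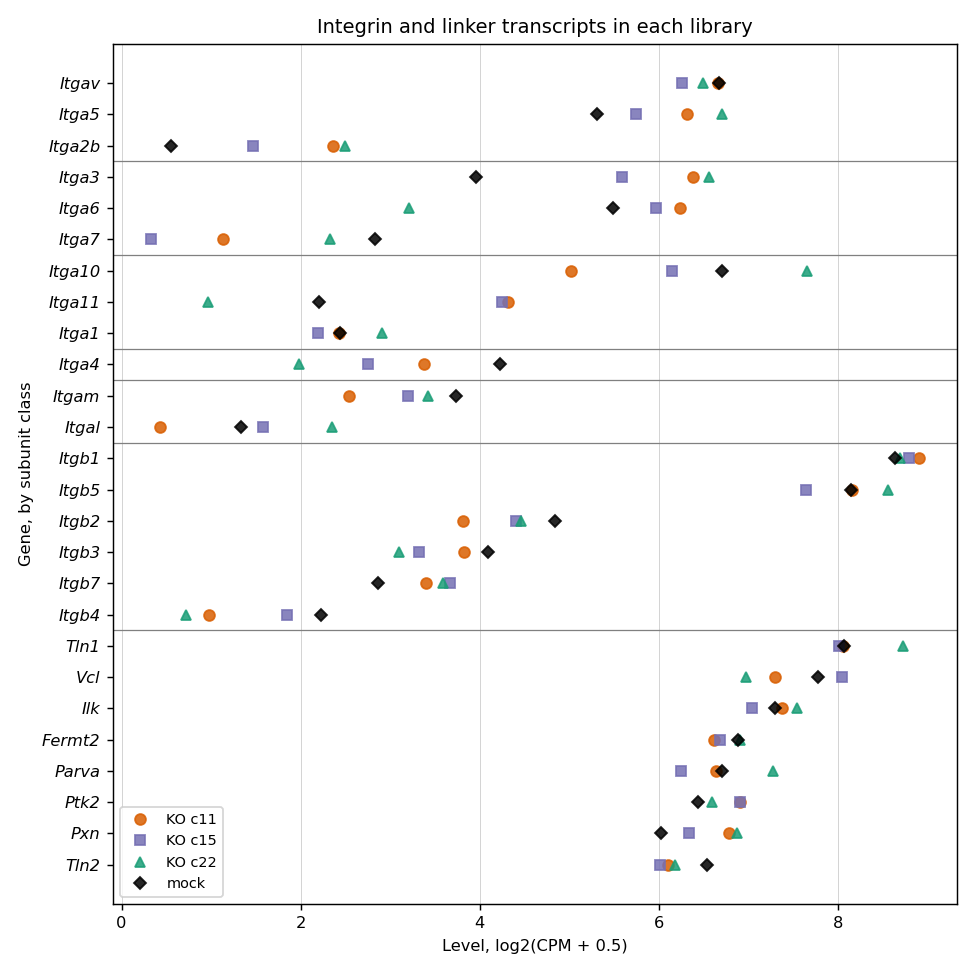
Level of each member that averaged 1 CPM or more, as log2(CPM + 0.5) on the horizontal axis, with 1 point per library (coloured circles, squares and triangles, KO c11, c15 and c22; black diamonds, mock) and grey lines between subunit classes. The 3 KO points of Itga3 lie right of mock and those of Itga4 left of it, while the KO points of Itga10, Itga11 and Itga6 lie on both sides of mock.

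Integrin alpha3 pairs with beta1 and binds laminins. Itga3 (chr11:95044474-95076801, minus strand, GRCm38) was at 82.9, 47.6 and 94.1 CPM in KO c11, c15 and c22, against 15.1 CPM in mock. All 3 KO libraries were above mock, and the lowest of them was still over the mock level by a log2 ratio of 1.62 on the log2(CPM + 0.5) scale. The mean was 74.9 ± 24.3 CPM in the KO libraries (SD, n = 3), 4.96 times the mock level, with a fitted log2 fold change of 2.31 (SE 0.54). The edgeR adjusted p was 0.528 over all genes and the DESeq2 adjusted p was 0.00364. Over the edgeR and limma-voom alternatives the log2 fold change ran from 2.102 to 2.554 and the adjusted p from 0.219 to 1. It was the 1 member at least 2-fold above mock in all 3 KO libraries on that scale, as were 1.05% of all genes that averaged 1 CPM or more, and 0 members were at least 2-fold below mock in all 3, against 1.76%.

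Integrin alpha6 is the other main laminin receptor chain of stromal and epithelial cells. Itga6 (chr2:71745616-71858416, plus strand) was at 75.1, 62.2 and 8.79 CPM in KO c11, c15 and c22, against 44.3 CPM in mock. The libraries c11 and c15 were above mock and c22 was below it, so the fitted log2 fold change of 0.13 (SE 1.02) stands for a spread of 8.54-fold among the KO libraries. Without c11 it was -0.31 and without c15 it was -0.10. Integrin alpha7 is the laminin receptor chain of skeletal muscle. Itga7 was at 1.70, 0.76 and 4.51 CPM, against 6.62 CPM in mock, below mock in all 3 (log2 fold change -1.50, SE 0.86). Its libraries had the same order as the summed skeletal muscle markers, c15 lowest, then c11, c22 and mock, and all 9 of those markers were below mock in all 3 KO libraries. The defining muscle marker Myh4 was at 0, 0 and 5.05 CPM in KO c11, c15 and c22 and at 31.3 CPM in mock. The part of muscle RNA in the Itga7 values was not tested.

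Alpha5, alphav, alpha8 and alphaIIb form the receptors for ligands with the RGD tripeptide, such as fibronectin and vitronectin. Itga5, the gene of the classic fibronectin receptor chain (chr15:103344286-103366763, minus strand), was at 79.3, 53.4 and 104 CPM in KO c11, c15 and c22, against 39.3 CPM in mock. All 3 KO libraries were above mock, with a mean of 78.9 ± 25.3 CPM (SD, n = 3), 2.01 times the mock level, and a fitted log2 fold change of 1.01 (SE 0.47, edgeR adjusted p = 1.00). Without c22 the log2 fold change was 0.75. Itgav, whose product pairs with several beta chains, was at 100.4, 76.2 and 89.8 CPM, against 101.5 CPM in mock, a fitted log2 fold change of -0.19 (SE 0.31). It was below mock in all 3.

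Itga2b, the platelet fibrinogen receptor chain gene, was at 4.65, 2.27 and 5.12 CPM in KO c11, c15 and c22, against 0.97 CPM in mock. All 3 KO libraries were above mock (log2 fold change 2.04, SE 0.89, edgeR adjusted p = 1.00). The 7 platelet markers summed to 7.44, 13.0 and 15.1 CPM in the KO libraries against 24.8 CPM in mock, most of it from Pf4 at 6.74, 12.1 and 13.9 CPM against 23.6 CPM. Gp1ba was at 0.46, 0.53 and 0.31 CPM against 0.32 CPM in mock, and Gp1bb, Gp9, Gp6 and Treml1 were at 0 in all 4 libraries. The part of platelet RNA in the Itga2b values was not tested. Itga8, a mesenchymal RGD receptor chain gene, had 38 counts in c11, 2 in c15 and 4 in c22, against 1 in mock. Only c11 stood apart from mock at this depth: its ratio to mock was 36.5 (exact 95% counting interval 6.16 to 1477), while the intervals of c15 (0.0977 to 111) and c22 (0.375 to 186) included 1.

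The promoters of Itga3 and Itga5, among the alpha subunit genes above mock in all 3 KO libraries, are printed. Those of the collagen receptor genes Itga10 and Itga11, which lay on opposite sides of mock in each KO library, are printed as well. Sequences are those of RefSeq (GRCm38.p6), read 5′ to 3′ on the strand of the gene, from up to 250 bases before the start and only outside the gene's annotated span. Capitals mark CG dinucleotides, the sites of DNA methylation. The stretches are chr11:95076802-95076964 (minus strand, 163 bases), chr15:103366792-103367041 (minus strand, 250 bases), chr3:96645334-96645583 (plus strand, 250 bases) and chr9:62677605-62677825 (plus strand, 221 bases).
Itga3: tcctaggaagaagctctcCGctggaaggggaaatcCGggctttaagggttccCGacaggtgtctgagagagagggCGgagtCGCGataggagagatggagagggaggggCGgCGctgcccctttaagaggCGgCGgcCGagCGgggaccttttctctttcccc
Itga5: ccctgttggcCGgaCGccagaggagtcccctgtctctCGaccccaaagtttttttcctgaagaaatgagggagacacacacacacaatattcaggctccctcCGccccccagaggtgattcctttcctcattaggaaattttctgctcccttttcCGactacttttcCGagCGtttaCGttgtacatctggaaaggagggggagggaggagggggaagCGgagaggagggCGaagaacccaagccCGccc
Itga10: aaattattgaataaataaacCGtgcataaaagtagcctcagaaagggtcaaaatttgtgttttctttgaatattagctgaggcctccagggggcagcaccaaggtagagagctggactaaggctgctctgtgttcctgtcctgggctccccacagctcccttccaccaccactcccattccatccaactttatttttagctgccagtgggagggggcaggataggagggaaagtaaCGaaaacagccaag
Itga11: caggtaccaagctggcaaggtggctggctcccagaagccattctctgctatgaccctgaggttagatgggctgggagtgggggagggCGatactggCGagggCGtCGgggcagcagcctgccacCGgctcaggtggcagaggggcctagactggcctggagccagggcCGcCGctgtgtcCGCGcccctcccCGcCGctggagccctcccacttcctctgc
The printed stretch holds 12 CG dinucleotides for Itga3, 11 for Itga5, 2 for Itga10 and 11 for Itga11. The core letters of the hypoxia response element, ACGTG and GCGTG, were searched on both strands in the 250 bases before each RefSeq start. Among the members 22 had a promoter in the reference table, with 25 windows, and 6 windows (24.0%) held a match, against 38.6% of all 32851 windows. ACGTG was found in the windows of Ilk, Itga9 and Vcl. In Ilk it lay on both strands at 1 place, as part of the letters CACGTG. The windows of Itga3, Itga5, Itga10 and Itga11 held neither motif, which says only that these letters are not in these bases.

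Alpha1, alpha2, alpha10 and alpha11 pair with beta1 to form the collagen receptors. Itga10, known from cartilage (chr3:96645584-96664519, plus strand), was at 32.1, 70.6 and 201 CPM in KO c11, c15 and c22, against 104 CPM in mock. The libraries c11 and c15 were below mock and c22 above it, a 6.25-fold spread among the KO libraries, with a log2 fold change of -0.03 (SE 0.94) in the fit. It was 0.41 without c11, 0.18 without c15 and -1.02 without c22. Itga11, the collagen receptor chain gene of fibroblasts (chr9:62677826-62783982, plus strand), was at 19.4, 18.6 and 1.45 CPM, against 4.12 CPM in mock. Here c11 and c15 were above mock and c22 below it, a 13.4-fold spread, with a fitted log2 fold change of 1.67 (SE 1.35). The 7 host fibroblast markers summed to 27.0, 106 and 103 CPM in KO c11, c15 and c22 and 122 CPM in mock, and 2 of the 6 tested were below mock in all 3 KO libraries. Pdgfra alone gave 63.8 CPM of that sum in c22, against 15.2 CPM in mock. The part of host fibroblasts in the Itga10 and Itga11 values was not tested. Of the annotated exon length of Itga10, 33.5% overlaps the predicted gene Gm42957 on the same strand, so reads there may not have been kept apart.

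Itga1 was at 4.88, 4.09 and 7.03 CPM in KO c11, c15 and c22, against 4.93 CPM in mock, and Itga2 at 0.23, 0.61 and 0.46 CPM, against 0.89 CPM. Neither passed the test (log2 fold changes 0.12, SE 0.59, and -1.01, SE 0.91, the second a gene under 1 CPM). Itga10, Itga11 and Itga6 were the 3 members, of 26 with a mean of at least 1 CPM, whose highest KO library was at least 4-fold over the lowest on the log2(CPM + 0.5) scale (11.5%, against 7.43% of all such genes). Without c22 the count was 0 and without c11 it was 2. For Itga6 and Itga11 c22 stood apart from c11 and c15, while for Itga10 the 3 KO libraries were spread out, with c11 lowest and c22 highest. Itga7 and Itgal lay just outside, with log2 ranges of 1.99 and 1.91 where 2 was asked. As plain CPM ratios, without the added 0.5, their spreads were 5.95-fold and 5.38-fold.

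**Figure D2:**
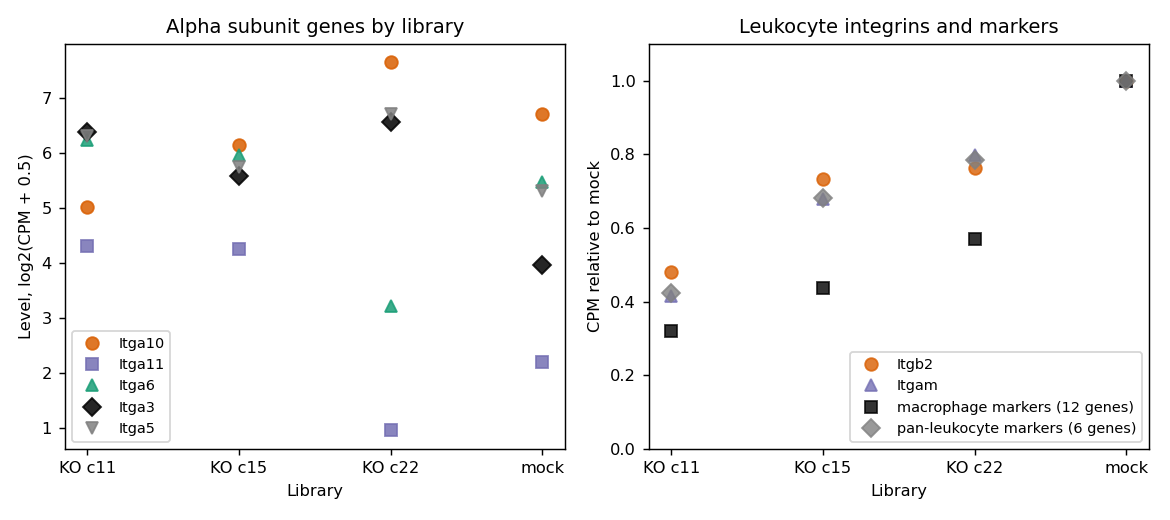
Left, level of 5 alpha subunit genes as log2(CPM + 0.5) in each library: in KO c22, Itga10 is highest and Itga6 and Itga11 lowest, while Itga3 and Itga5 are above mock in every KO library. Right, CPM relative to mock (mock = 1) of Itgb2, Itgam and the summed macrophage and pan-leukocyte markers: all lie below 1 in the KO libraries, lowest in c11.

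Alpha4 and alpha9 bind fibronectin and the vascular adhesion molecule VCAM-1, and alpha4 is common on leukocytes. Itga4 (chr2:79255426-79333123, plus strand) was at 9.91, 6.22 and 3.44 CPM in KO c11, c15 and c22, against 18.3 CPM in mock. All 3 KO libraries were below mock, by 2.80-fold on their mean of 6.52 ± 3.25 CPM (SD, n = 3), with a fitted log2 fold change of -1.48 (SE 0.59, edgeR adjusted p = 1.00). The DESeq2 adjusted p was 1.00 as well. The summed pan-leukocyte markers were also below mock in all 3 KO libraries, at 66.5, 107 and 123 CPM against 157 CPM, with c11 lowest for the markers and c22 lowest for Itga4. The part of host leukocytes in the Itga4 values was not tested. Itga9 was at 0.62, 0.45 and 0.31 CPM, against 0.81 CPM in mock.

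Leukocyte integrins pair alphaL, alphaM, alphaX or alphaD with beta2, and alphaE with beta7. Itgb2 was at 13.6, 20.7 and 21.6 CPM in KO c11, c15 and c22, against 28.3 CPM in mock (log2 fold change -0.60, SE 0.43), and Itgam, the alpha chain gene of myeloid cells, at 5.34, 8.72 and 10.2 CPM, against 12.8 CPM (log2 fold change -0.66, SE 0.53). Both were below mock in all 3 and lowest in c11. Itgb2 was at 48.0%, 73.2% and 76.3% of mock in c11, c15 and c22 and Itgam at 41.6%, 67.9% and 79.8%. The 6 pan-leukocyte markers summed to 42.4%, 68.2% and 78.4% of mock, with 5 of 6 below mock in all 3 KO libraries, and the 12 macrophage markers to 32.1%, 43.8% and 57.1%, with 11 of 12 below. The 2 marker sums and the 2 integrin genes thus had the same order of libraries. Single markers did not all have that order. Lyz2 alone gave 142, 188 and 266 CPM of the macrophage sum in c11, c15 and c22 and 554 CPM in mock. The part of host leukocytes in these values was not tested. Of the exon length of Itgam, 68.7% overlaps the predicted gene Gm49368 on the same strand, which had 0 counts. Reads there may have been left uncounted, so the level of Itgam is uncertain.

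The other leukocyte chains had low levels. Itgal, the lymphocyte function antigen chain gene, was at 0.85, 2.50 and 4.59 CPM in KO c11, c15 and c22, against 2.02 CPM in mock, and Itgax at 0.39, 0.99 and 1.07 CPM, against 0.89 CPM. Itgae had 1, 5 and 8 counts, against 3 in mock, and Itgad 1, 1 and 0 counts, against 0. Neutrophil markers summed to 4.72, 14.8 and 17.3 CPM in KO c11, c15 and c22 and 10.4 CPM in mock, and the neutrophil genes Ly6g, Camp and Ngp were at 0 in all 4. Itgb7, a partner of alpha4 and alphaE, did not follow Itgb2: it was at 10.1, 12.2 and 11.5 CPM, against 6.78 CPM in mock, above mock in all 3 (log2 fold change 0.74, SE 0.48, edgeR adjusted p = 1.00).

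Among the beta chains of adherent cells, Itgb1, the common partner of the collagen, laminin and fibronectin receptor chains, was at 479.6, 445 and 414 CPM in KO, against 399 CPM in mock. It was above mock in all 3 but by little, with a fitted log2 fold change of 0.16 (SE 0.27). Itgb5, a partner of alphav, was at 286, 200.2 and 378 CPM, against 282 CPM in mock, with c15 below mock and c22 above it (log2 fold change 0.04, SE 0.42). Itgb3, the other main partner of alphav and known from osteoclasts and platelets, was at 13.7, 9.47 and 8.10 CPM, against 16.6 CPM in mock. All 3 KO libraries were below mock (log2 fold change -0.67, SE 0.47). Itgb4, the hemidesmosome chain gene of epithelia, was at 1.47, 3.11 and 1.15 CPM, against 4.20 CPM in mock (log2 fold change -1.13, SE 0.71). Of 7 keratinocyte markers, Krt5, Krt15 and Krt1 were at 0 in all 4 libraries. The list summed to 3.64, 4.32 and 3.29 CPM in KO c11, c15 and c22 against 3.39 CPM in mock. Most of it came from Krt10, at 3.10, 3.71 and 3.06 CPM against 2.99 CPM. Itgb6 had 1 count in c15 and 0 in the other libraries, and Itgb8 had 0 counts in the KO libraries and 2 in mock, so a difference was not detectable at this depth.

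**Figure D3:**
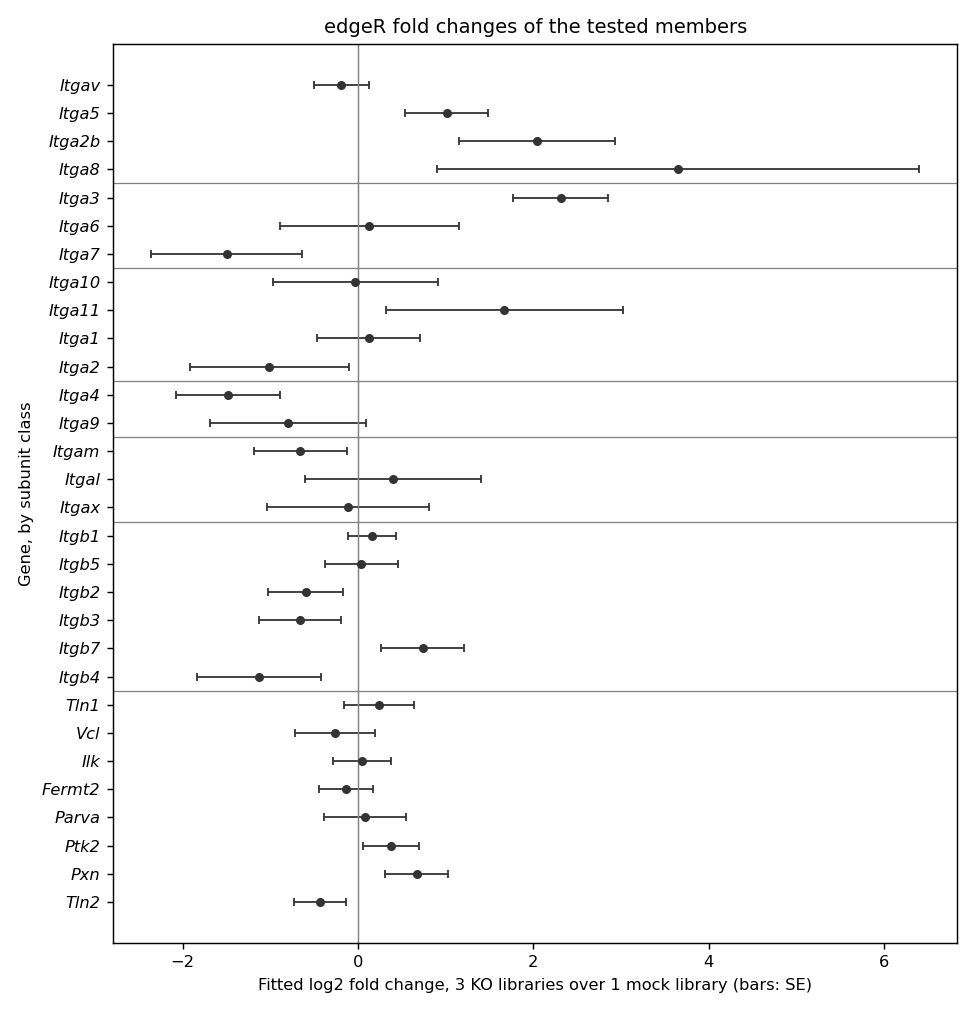
Fitted edgeR log2 fold change of the 30 tested members, 3 KO libraries over 1 mock library, with bars of 1 SE and grey lines between subunit classes. Itga3 lies at 2.31 with an SE of 0.54, the linkers lie between -0.43 and 0.67, and the point of Itga8 depends on 1 mock count.

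Levels of different genes were set side by side as TPM, in which counts are divided by annotated exon length and scaled to the same total in each library. Among the beta chains Itgb1 came first in c11 and c15 and Itgb5 in c22: Itgb1 was at 331, 319 and 274 TPM in c11, c15 and c22 and 273 TPM in mock, and Itgb5 at 227, 165 and 287 TPM and 222 TPM in mock. Together they made up nearly all of the beta chain total of 588, 523 and 595 TPM in the KO libraries and 537 TPM in mock. The alpha chains summed to 175, 159 and 246 TPM in c11, c15 and c22 and to 144.5 TPM in mock. The make-up of that sum differed by library. Itga10 gave 9.96%, 25.1% and 42.4% of it in c11, c15 and c22 and 38.8% in mock. Itga3 gave 23.4%, 15.4% and 18.1% and 5.11% in mock, and Itga5 gave 25.9%, 20.0% and 23.1% and 15.4% in mock. Itgav gave 15.1%, 13.1% and 9.17%, against 18.2% in mock, lower in each KO library. The leading alpha chain gene was Itga5 in c11 and Itga10 in c15, c22 and mock.

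**Figure D4:**
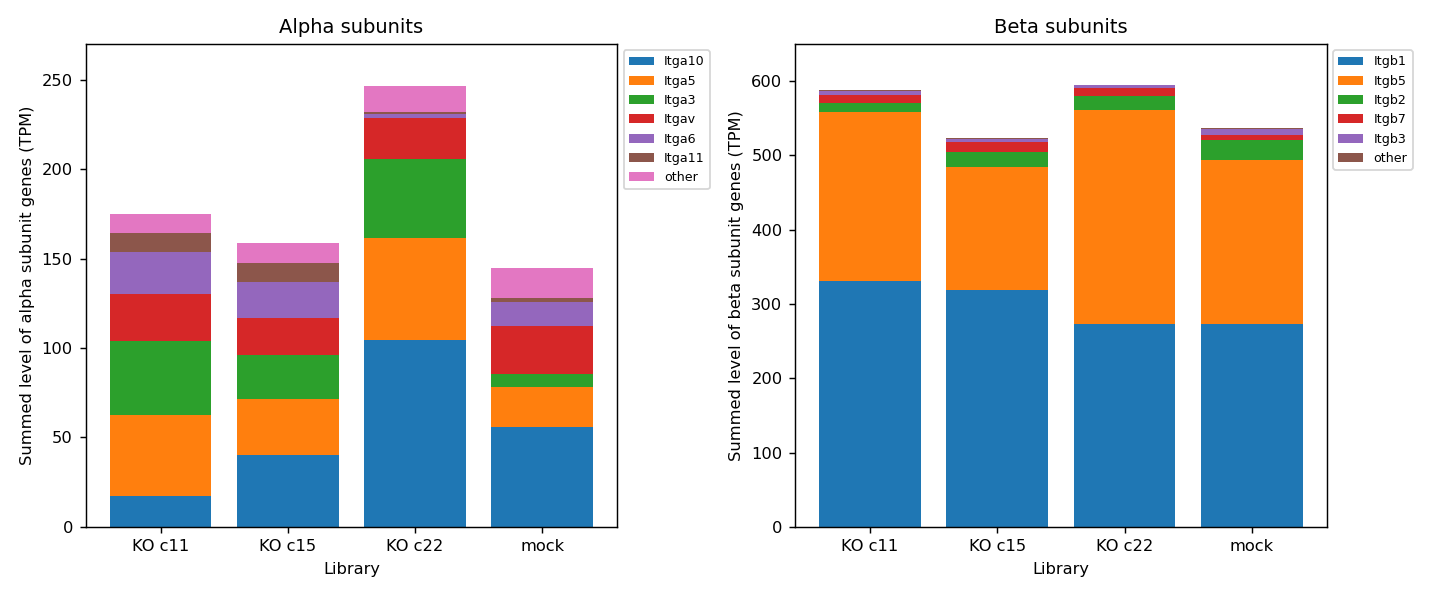
Stacked bars of the summed level of the alpha (left) and beta (right) integrin subunit genes in TPM, 1 bar per library with the KO libraries left of mock, coloured by gene. Itga3 and Itga5 take a larger part of the alpha bar in each KO library than in mock, while Itga10 ranges from 9.96% of it in c11 to 42.4% in c22, and Itgb1 with Itgb5 fills most of each beta bar.

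The linkers were expressed at 64.1 CPM or more in every library, with fitted log2 fold changes between -0.43 and 0.67. Pxn, the gene of the adaptor paxillin, was at 109.8, 80.7 and 117 CPM in KO, against 64.5 CPM in mock, above mock in all 3 (log2 fold change 0.67, SE 0.36, edgeR adjusted p = 1.00). Ptk2, which encodes the focal adhesion kinase, was at 119.7, 119.7 and 95.8 CPM in KO, against 86.3 CPM in mock, also above it in all 3 (log2 fold change 0.37, SE 0.32). These were the 2 linkers above mock in all 3 KO libraries.

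Tln2, the gene of the second talin, was the 1 linker below mock in all 3, at 68.0, 64.1 and 72.3 CPM in KO c11, c15 and c22, against 92.4 CPM in mock. Its KO libraries differed little, with a mean of 68.2 ± 4.10 CPM (SD, n = 3), but the log2 fold change of -0.43 (SE 0.29, edgeR adjusted p = 1.00) did not pass. Tln1, the gene of the main talin, was at 267, 257 and 423 CPM, against 268 CPM in mock, with c22 alone well above it. Vcl, the vinculin gene, was at 157, 263 and 125 CPM, against 219 CPM in mock, with c15 above it and the other KO libraries below.

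The genes of the complex of integrin-linked kinase, parvin and kindlin had KO libraries on both sides of mock. Ilk was at 166, 131 and 186 CPM in KO c11, c15 and c22, against 156.5 CPM in mock (log2 fold change 0.05, SE 0.33). Parva, the alpha-parvin gene, was at 99.2, 75.3 and 154 CPM, against 104 CPM in mock (0.08, SE 0.47), and Fermt2, the kindlin-2 gene, at 97.4, 102 and 119 CPM, against 117 CPM (log2 fold change -0.14, SE 0.31). For each of these, mock lay within the range of the KO libraries. Exons of Ilk overlap those of Taf10 on the opposite strand over 76.7% of its length, and those of Vcl overlap Ap3m1 over 25.5%. The sources used here do not say whether counting used the strand, so these levels are uncertain.

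Other genes of the adhesion machinery were read from 6 lists of 101 genes in all, of which 96 were tested. With edgeR 0 passed over all genes, and 5 of the 96 had an unadjusted p under 0.05, against 3.68% of all tested genes. DESeq2 called 2 higher, Src and Lamb1, and 0 lower, against 0.306% and 0.42% of all tested genes, and with limma-voom 0 passed. Over these genes 22.9% were above mock in all 3 KO libraries and 17.7% below, near the 21.0% and 22.5% of all tested genes, and their median log2 fold change was 0.09, against 0.05.

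Src, the tyrosine kinase gene that acts with focal adhesion kinase, was at 63.4, 21.9 and 29.7 CPM in KO c11, c15 and c22, against 6.06 CPM in mock (log2 fold change 2.66, SE 0.78, edgeR adjusted p = 0.841, DESeq2 adjusted p = 0.0251). All 3 KO libraries were above mock, c11 most. In that list of kinases, adaptors and exchange factors, 5 of 20 genes were above mock in all 3 and 4 below (median 0.10). The kinase gene Pak1 was at 19.6, 8.72 and 23.1 CPM, against 8.40 CPM, while Ptk2b, the focal adhesion kinase relative, was at 1.08, 2.35 and 2.75 CPM, against 2.75 CPM, and the paxillin relative Tgfb1i1 at 0.23, 0.91 and 1.22 CPM, against 1.86 CPM.

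Of 18 actin-side linkers, 9 were above mock in all 3 KO libraries and 1 below (50.0% and 5.6%, median log2 fold change 0.35). Tns1, the tensin-1 gene, was at 288, 121 and 211 CPM in KO, against 78.1 CPM in mock (log2 fold change 1.40, SE 0.55, edgeR adjusted p = 1.00), all above it. Flnc, the muscle filamin gene, was at 121, 4.85 and 95.9 CPM in KO, against 22.5 CPM in mock, so its libraries lay on both sides. Vim, the gene of the intermediate filament protein vimentin, was at 1362, 1454 and 1231 CPM, against 1601 CPM. It was the 1 gene of the list below mock in all 3. Sorbs3 was at 0.23, 2.12 and 0.99 CPM, against 1.45 CPM.

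Of 13 activators and partners of the kinase and parvin complex, 0 were above mock in all 3 and 4 below (median -0.09), and Fermt1 was at 0 in all 4 libraries. Parvg, the hematopoietic parvin gene, was at 0.77, 0.68 and 0.84 CPM in KO c11, c15 and c22, against 2.02 CPM in mock, and Apbb1ip, the leukocyte talin recruiter gene, at 3.72, 6.52 and 5.66 CPM, against 8.64 CPM. Both were below mock in all 3, as were the summed pan-leukocyte markers given above, with c11 lowest for Apbb1ip and the markers and c15 lowest for Parvg. The part of host leukocytes in the Parvg and Apbb1ip values was not tested. Parvb was at 30.3, 17.4 and 38.4 CPM, against 25.4 CPM, and Rap1a at 125, 111 and 91.0 CPM, against 92.9 CPM.

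Among 10 tetraspanins and integrin-associated membrane proteins, 3 were above mock in all 3 KO libraries and 1 below (median 0.21). Bsg, the basigin gene, was at 339.6, 393 and 456 CPM in KO, against 724 CPM in mock (log2 fold change -0.86, SE 0.29, edgeR adjusted p = 1.00). Cav1, the caveolin-1 gene, was at 17.7, 20.8 and 24.4 CPM, against 10.2 CPM (1.05, SE 0.45), above mock in all 3. Cd82 split the lines: it was at 15.4 and 17.8 CPM in c11 and c22, but at 1.06 CPM in c15, near the 1.13 CPM of mock. Cd9 was at 126, 134 and 98.2 CPM, against 134 CPM.

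Of 24 tested integrin ligand genes, 2 were above mock in all 3 KO libraries and 5 below (median -0.09). Lamb1, which encodes a beta chain of laminins, was at 86.4, 78.0 and 128 CPM in KO c11, c15 and c22, against 12.4 CPM in mock (log2 fold change 2.98, SE 0.50, edgeR adjusted p = 0.308, DESeq2 adjusted p = 9.56e-07). Col4a1, a basement membrane collagen gene, was at 113 CPM in c11 but at 6.67 and 1.61 CPM in c15 and c22, against 11.9 CPM in mock, so c11 alone set its mean. Nid1 was at 4.65, 18.7 and 5.20 CPM, against 22.8 CPM, and Lama4 at 1.47, 4.85 and 0.99 CPM, against 4.85 CPM. Of 11 SRF and YAP target genes, which respond to adhesion and tension, 3 were above and 2 below (median 0.19). Acta2 was at 8.91, 22.9 and 103 CPM, against 9.45 CPM, with c22 far above the rest, and Ankrd1 at 3.10, 0.30 and 3.98 CPM, against 0.08 CPM. Tpm2 was at 1.16, 1.67 and 15.3 CPM, against 15.75 CPM in mock, and Myl9 at 1.55, 3.41 and 2.14 CPM, against 4.44 CPM.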

How the data were processed

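The table the authors deposited holds unnormalized read counts for 55487 Ensembl genes in 4 libraries. The submitters' processing notes name HISAT2 (2.1.0) and featureCounts (1.6.3), with Trimmomatic (0.38) and FastQC (0.11.7) for the reads, SAMtools (1.9), and GRCm38. The kit was directional, per the labels' protocols, but the sources used here give no strand, multimapping or other counting settings.

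From these counts, CPM used each column's total, and TPM the union of exons in GENCODE M21 (55227 of 55487 IDs matched). Genes kept by filterByExpr (15706, 99.9% of counts) were tested in 1 fit with the quasi-likelihood test of edgeR 4.0.16 (R 4.3.3; TMM, robust, 2-sided, Benjamini-Hochberg, threshold 0.05), with 2 residual degrees of freedom. The lone mock library was assumed to vary like the KO libraries, and whether tumours came from separate animals is not labelled. A p-value thus reflects only how these libraries vary. With 1 library per KO line, differences between lines and technical variation cannot be told apart in that spread. No 2 libraries were copies (chi-square per gene 44.3 to 82.8). Pairs of mock with a KO library ran from 44.3 (c15) to 68.7 (c22). Pairs of KO libraries ran from 46.5 (c11 and c22) to 82.8 (c15 and c22), so over all genes mock was no farther from them than they were from each other. The SE came from the F statistic. Alternatives were DESeq2 1.42.0, limma 3.58.1 (voom), other scale factors and low-count filters, the older edgeR method and leaving out each KO library. The fit was tested on simulated data. Members and lists were chosen with earlier results of these data known. Every member was described, and of each other list the 2 highest and 2 lowest fold changes among genes with a mean of at least 1 CPM. Genes at 0 or defining a cell type were named from the marker lists.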

Additional observations from a re-analysis of the deposited data

How the results depend on the processing

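The 30 tested members gave 295 values under 10 alternatives, and 281 kept both direction and side of the threshold. DESeq2 called 1 member (Itga3), 2 genes of the other adhesion lists, and 48 genes higher and 66 lower over all genes, where edgeR called 0, 0, 0 and 1. The 1 call became 4 with no low-count filter and 0 with limma-voom, with the older edgeR quasi-likelihood method (chosen after seeing the data) and without any 1 KO library (range 0 to 0). The fitted direction of 9 members turned, and the cause was not tested. With limma-voom, Itga6 was at -0.35 and Itgb5 at -0.015. Without 1 KO library, values ranged from -0.31 to 0.62 for Itga6, -1.02 to 0.41 for Itga10, -0.27 to 0.83 for Itgal, -0.37 to 0.23 for Itgax, -0.14 to 0.28 for Itga1, -0.082 to 0.17 for Ilk, -0.22 to 0.24 for Itgb5, -0.26 to 0.29 for Parva and -0.040 to 0.37 for Tln1. The members' median ranged from -0.22 to 0.17, and the count with a 4-fold spread among KO libraries from 0 to 3. It was 4 on the RLE, upper quartile and TMM scales, the last also chosen after seeing the data. The summed integrin level was 762 TPM over all genes and 910 TPM over protein-coding genes, in the KO mean. The all-gene median was 0.11 with no filter and 0.05 in the fit as reported. No paired analysis was possible because there is 1 mock library and the KO columns carry no replicate number. With 1 control library and 2 residual degrees of freedom, a p that misses the threshold does not show that levels were alike.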
